A study of Mus musculus with 8 samples.

Results

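Metabotropic glutamate receptors were followed here through 6 member genes, Grm2, Grm3, Grm4, Grm5, Grm7 and Grm8, which were taken by name and found by symbol among the 26711 features of the count matrix. Their UMI counts (UMIs are molecular identifiers that count captured transcripts once) were summed per library and deposited cell type and divided by all UMIs of that library and type to give CPM, a level scaled for depth. The measurements are droplet-based single-nucleus RNA-seq of V1, the primary visual area of the mouse cortex, at P21 (postnatal day 21), with 102330 nuclei in 20 cell types. The 8 libraries form 4 groups of 2, each with 1 male and 1 female. All mice were GRfl/fl, that is, homozygous for a loxP-flanked glucocorticoid receptor gene (Nr3c1), and all received at birth an AAV2/5 vector with the astrocyte promoter GfaABC1D. In GR-KO mice the vector encoded Cre with eGFP, and in GR-Con mice a truncated Cre (ΔCre) with eGFP. Mice of each genotype were reared normally (NR) or in the dark (DR), and groups are named by rearing and then genotype, such as NR GR-Con.

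These receptors are G-protein-coupled receptors for glutamate and fall into 3 groups. Group I, represented by Grm5, couples to Gq and phospholipase C and is mostly postsynaptic. Group II (Grm2 and Grm3) and group III (Grm4, Grm7 and Grm8) couple to Gi/o, lower cyclic AMP and in neurons restrain transmitter release. Grm3 is also the main metabotropic glutamate receptor of mature cortical astrocytes, while Grm5 is known for its early expression in astrocytes and its lower level there with age.

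The genes differ widely in size, and nuclear RNA is rich in introns, so levels of different genes were compared only per length of the gene. On GRCm38 (mm10), Grm5 lies on chromosome 7 from 87584168 to 88134907, Grm2 on chromosome 9 from 106643095 to 106656082 and Grm3 on chromosome 5 from 9485541 to 9725170. Grm4 lies on chromosome 17 from 27422387 to 27521403, Grm7 on chromosome 6 from 110645581 to 111567230 and Grm8 on chromosome 6 from 27275119 to 28135178. Over all nuclei, the mean level per 100 kb of gene was 325 CPM for Grm7, 282 for Grm5, 234 for Grm3, 51.9 for Grm8, 39.1 for Grm2 and 15.6 for Grm4. Per 100 kb, Grm5 was the highest of the 6 genes in 9 cell types, Grm3 in 7 and Grm7 in 4. Antisense features overlap Grm2 (Gm28111) and Grm7 (Gm20387), and held 424 and 12732 UMIs against 9632 and 5660873 UMIs of the receptor genes.

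Nuclei per library ran from 9517 to 15161 and total UMIs from 168632129 to 288774016. The NR GR-KO libraries stood apart in depth, with median UMIs per nucleus of 22828 and 29223 against 14861 to 20161 in the other 6. Of 101098 barcode sequences, 1220 occurred in more than 1 library. Of 64 marker genes, 54 were highest in the cell type they mark, but 0 of 3 markers of L6IT and 1 of 3 each of L4 and L5IT were, so those names rest on the deposited annotation. Cre UMIs were found in the 4 GR-KO libraries (190 to 1054) and in none of the GR-Con libraries (0 UMIs each). The delCre feature, named for the control vector, was counted in all 8, with 41 to 83 UMIs in GR-Con and 140 to 785 UMIs in GR-KO, so it was higher in the groups not named for it. Nr3c1 in astrocytes was at 207 to 263 CPM in the libraries labelled GR-Con and at 268 to 284 CPM in those labelled GR-KO. A count over the whole gene does not check the deleted part, so the deletion cannot be seen in these values. The labels give a sort on the DNA dye DRAQ5, to which the study's methods add a GFP-negative gate, so nuclei were not selected for carrying the vector. The eGFP was targeted to the plasma membrane. The methods give 2 mice per group, and with 2 libraries a group the spread is poorly known.

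Grm5, the group I receptor, was at its top levels in neurons. It was highest in layer 5 near-projecting neurons (L5NP), at 3370 ± 141 CPM (SD, n = 8 libraries), and the 8 libraries ran from 3189 to 3584 with a median of 3371. L5NP lay above the next type without overlap. Lamp5 interneurons followed with 2572 ± 118 CPM, parvalbumin interneurons (Pvalb) with 2215 ± 168, L5PT neurons with 2035 ± 161 and L2/3 neurons with 1807 ± 154, each pair of neighbours overlapping in range. Oligodendrocyte precursor cells (OPC) held 706 ± 99.7 CPM, astrocytes 152 ± 53.0 and oligodendrocytes 90.2 ± 26.0. OPC lay above astrocytes and oligodendrocytes in all 8 libraries. Vascular types held 795 ± 118 CPM (Endo, endothelial cells), 738 ± 430 (SMC-Peri, smooth muscle cells and pericytes) and 681 ± 453 (VLMC, vascular leptomeningeal cells). Taken as means over nuclei, these levels were 394, 420 and 337 CPM. Neuronal markers summed to 7332 to 12222 CPM in Endo and 1759 to 15105 CPM in VLMC, so how much of these levels is neuronal RNA was not tested.

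Group II was split between a rare and an abundant gene. Grm2, a presynaptic autoreceptor of glutamatergic terminals, was highest in L4 neurons, where the 8 libraries ran from 9.03 to 15.6 CPM with a median of 11.6. L5IT neurons followed at 9.71 ± 2.73 CPM, below L4 in 8 of 8 libraries although the ranges overlapped. At least 1 Grm2 UMI was found in 21.5% of L4 nuclei and in 0.997% of astrocytes (2.45% and 0.289% with each nucleus thinned to 2000 UMIs). L4 held 51.0% of all Grm2 UMIs. Parvalbumin interneurons were at 0.599 ± 0.218 CPM, the lowest mean among types measured in all 8 libraries.

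Grm3 stood out in astrocytes, with 3294 ± 590 CPM and a range of 2354 to 4058 over the 8 libraries. SMC-Peri were at 1994 ± 697 CPM in 6 libraries with at least 10 such nuclei, and lay below the astrocytes in 6 of 6 although the ranges overlapped. Among neurons, Grm3 ran from 1194 ± 125 CPM in L5NP, through 864 ± 198 in L6CT and 742 ± 127 in L4, down to 44.9 ± 19.3 in Lamp5 interneurons. L4 and L5IT (741 ± 179) could not be ordered, since L4 was higher in 4 of 8 libraries. OPC had the lowest mean of the 20 types, at 37.3 ± 7.02 CPM, overlapping Lamp5 in range. Astrocytes, with the most Grm3, thus held less Grm5 than OPC, with the least Grm3. Per 100 kb of gene, Grm3 reached 1375 CPM in astrocytes, where the next member, Grm5, reached 27.6 CPM.

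Among group III receptors, Grm7, the low-affinity receptor of presynaptic active zones, was highest in L4, at 5099 ± 472 CPM. L5NP followed at 4786 ± 218 CPM, below L4 in 7 of 8 libraries with overlapping ranges, and L2/3 neurons were at 3739 ± 285 CPM. SMC-Peri held 3752 ± 568 CPM in 6 libraries, beside neuronal markers that summed to 1605 to 18219 CPM there. Interneurons differed from one another: Sst and Vip neurons held 2079 ± 174 and 2061 ± 180 CPM, while Pvalb neurons held 425 ± 70.7 and Lamp5 neurons 315 ± 71.6. Astrocytes had the lowest mean, at 114 ± 42.3 CPM, but chandelier cells (ChC, 117 ± 83.1 CPM in 3 libraries) overlapped them.

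Grm8 reached 1628 ± 84.1 CPM in L5NP, 1239 ± 52.5 in L6CT, 1025 ± 153 in L5PT and 882 ± 119 in Vip interneurons. L4 neurons, which had the most Grm7, held 43.2 ± 11.4 CPM of Grm8, and L6CT held 34.8% and L2/3 18.8% of all Grm8 UMIs. Grm4 was highest in L5NP, at 58.3 ± 10.6 CPM. Sst (35.0 ± 6.09), Vip (31.0 ± 6.44) and L4 (30.8 ± 5.86) followed, and these 3 overlapped in range. At least 1 Grm4 UMI was found in 56.3% of L5NP nuclei, 40.7% of L4 nuclei and 0.796% of astrocytes. Astrocytes held 1.16 ± 0.450 CPM of Grm4.

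**Figure D1:**
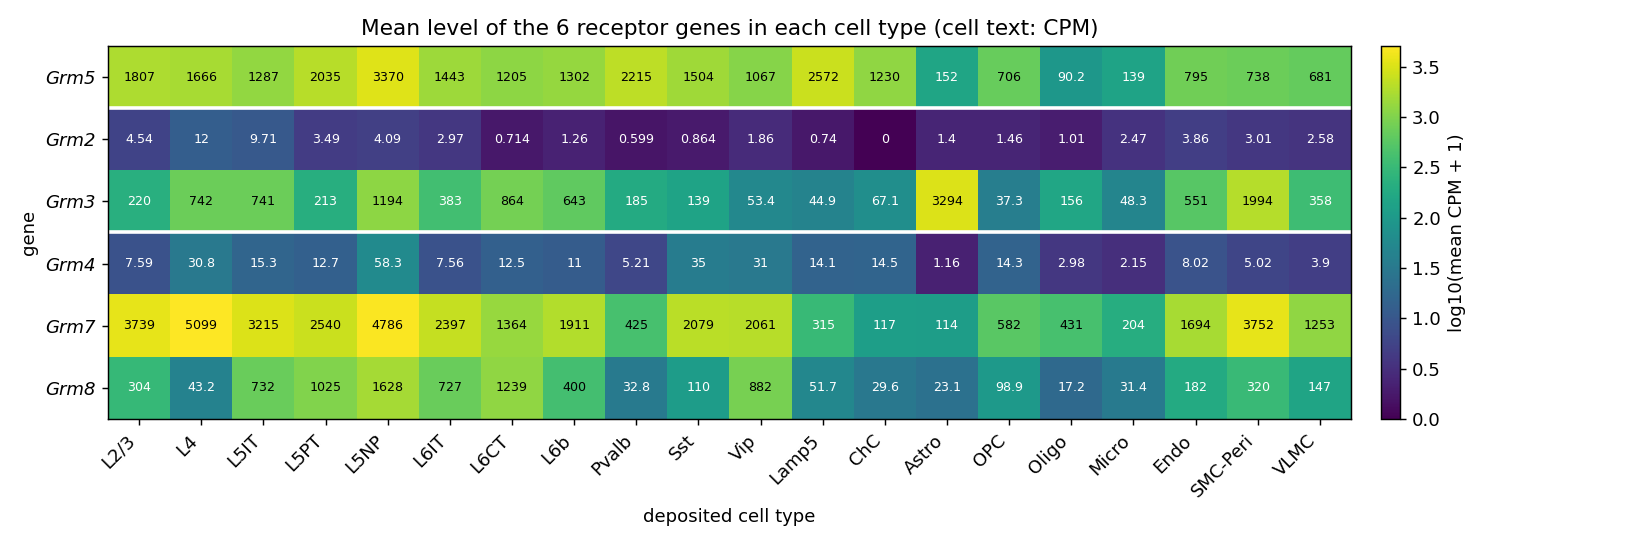
Mean level of each receptor gene (rows, group I, II and III from the top, separated by white lines) in each deposited cell type (columns), in CPM over the 3 to 8 libraries with at least 10 nuclei of that type; colour is log10(mean CPM + 1). Grm3 peaks in astrocytes at 3294 CPM, Grm7 in L4 at 5099 CPM, and Grm5, Grm4 and Grm8 in L5NP at 3370, 58.3 and 1628 CPM.

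The genes most like each member were those with the highest Pearson correlation of log2(mean CPM + 1) over the 20 cell types, among 13620 genes with at least 10 CPM in some type. For Grm5 they were Shank1, a postsynaptic scaffold (r = 0.960), Ptprn2 (0.956) and Srrm3 (0.956). Grm8 was most like Ldb2 (0.909) and Gm43507 (0.909), Grm7 most like Pcsk1 (0.889) and Brinp1 (0.876), and Grm2 most like Gm20752 (0.877). Grm3 followed Gm32200 (0.866), and Grm4 followed Bean1 (0.842). Among members, Grm7 and Grm8 (0.737) and Grm4 and Grm5 (0.728) were the most alike, while Grm3 and Grm5 were unrelated over these types (0.00147). These values are descriptions over 20 types that share libraries.

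Comparisons were run in every cell type with at least 10 nuclei in each of its libraries, with the likelihood ratio test of edgeR on counts per library, and a gene was called at an adjusted p under 0.05 (Benjamini-Hochberg over all genes of that cell type). A unit of counting below is a member gene in a cell type. The quasi-likelihood test of edgeR, which is stricter about the spread between libraries, is given beside it. Some counts at an unadjusted p under 0.05 are also given. The share of all pairs at that threshold is not given, so those counts do not set the receptors apart from other genes. Comparisons that share libraries are not independent. Each group of 2 libraries serves in 1 genotype and 1 rearing comparison of 2 groups. It serves again in the interaction and in the comparisons over both rearings or genotypes, which use all 8 libraries.

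Under normal rearing, GR-KO was set against GR-Con to ask which receptors differed where astrocytes received Cre. Of 91 member and cell type pairs that passed the filter on low counts (of 102), 6 were called, with 5 of them higher and 1 lower in GR-KO, against 0.804% of all gene and cell type pairs. The quasi-likelihood test called 4, against 0.361%, and DESeq2 called 4, against 0.433%. Grm2 passed the filter in 9 of 17 cell types and Grm4 in 14, and neither was called. The median log2 fold change of the tested members was 0.07, and the median over all genes lay between -0.01 and 0.01 in each cell type.

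In astrocytes, Grm5 was at 111 and 99.6 CPM in the male and female NR GR-Con libraries, and at 262 and 189 CPM in the NR GR-KO libraries. It rose in GR-KO by 1.03 on the log2 scale (SE 0.18, edgeR adjusted p = 1.01e-06). Grm7 was at 78.9 and 58.9 CPM in NR GR-Con and at 144 and 160 CPM in NR GR-KO (log2 fold change 1.08, SE 0.17, edgeR adjusted p = 7.97e-08). In both genes the groups did not overlap, but the share of all genes without overlap is not given, so this does not set them apart. Both calls were kept in all 11 alternatives run. Beside them, the summed level of 12 excitatory and pan-neuronal marker genes in astrocytes was 1006 to 1199 CPM in NR GR-Con and 1827 to 1886 CPM in NR GR-KO, with no marker at 0 in any library. That of 4 inhibitory markers was 378 to 420 CPM against 333 to 345 CPM. Median UMIs per astrocyte were 6267 and 5587 in NR GR-Con and 8662 and 12124 in NR GR-KO. The part of neuronal RNA and of depth in the Grm5 and Grm7 differences was not tested.

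Grm3, the major receptor of astrocytes, was at 2524 and 3417 CPM in NR GR-Con and at 3203 and 4058 CPM in NR GR-KO. The groups overlapped, and the difference was not called (log2 fold change 0.23, SE 0.22, edgeR adjusted p = 0.762). In every group the female library was above the male one. With sex as a term the genotype difference of 0.23 was called (edgeR adjusted p = 0.0489). That fit called 1.84% of all pairs, against 0.804% without the term. Adjusted p-values ran from 0.00250 to 0.996 over the alternatives. The value of 0.00250 came from the quasi-likelihood test with a sex term, which was added after seeing the data. In DR, Grm3 was at 2354 and 3717 CPM in GR-Con and at 3380 and 3701 CPM in GR-KO, a log2 fold change of 0.25 (SE 0.27) that was not called. Without the DR GR-Con female this DR difference was 0.59 and was called.

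In oligodendrocytes, Grm5 was at 63.1 and 57.9 CPM in NR GR-Con and at 106 and 139 CPM in NR GR-KO (log2 fold change 0.97, SE 0.18, edgeR adjusted p = 2.79e-05). Grm8 was at 14.6 and 9.43 CPM against 24.1 and 24.9 CPM (log2 fold change 0.96, SE 0.21, edgeR adjusted p = 9.26e-04), a call that the quasi-likelihood test and DESeq2 did not make and that ended without the NR GR-Con female (0.73). The neuronal marker sum in oligodendrocytes was 641 to 744 CPM in NR GR-Con and 1158 to 1629 CPM in NR GR-KO. Median UMIs per oligodendrocyte were 8543 and 7858 in NR GR-Con and 11134 and 15571 in NR GR-KO, and the part of either in these differences was not tested. In OPC, Grm5 was at 615 ± 95.7 CPM in NR GR-Con and 743 ± 25.8 CPM in NR GR-KO and was not called (log2 fold change 0.24, SE 0.16).

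The remaining calls went in both directions. Grm8 in OPC was lower in GR-KO: 163 and 152 CPM in NR GR-Con against 94.0 and 115 CPM in NR GR-KO, which fell by 0.63 on the log2 scale (SE 0.15, edgeR adjusted p = 0.0122). Without the NR GR-Con male (-0.59) or the NR GR-KO male (-0.49) this was not called, and DESeq2 did not call it. The neuronal marker sum of OPC was 1898 to 2118 CPM in NR GR-Con and 2523 to 2706 CPM in NR GR-KO, with median UMIs per OPC of 6229 and 5413 against 8405 and 9392, and the part of either was not tested. Grm3 in L5PT rose by 0.67 on the log2 scale (SE 0.18, edgeR adjusted p = 0.0236), from 171 and 154 CPM to 242 and 275 CPM. The higher value came from the NR GR-KO female, which held 59 L5PT nuclei, and the quasi-likelihood test did not call it. The call also ended without the NR GR-Con male (0.74) or the NR GR-Con female (0.61). Astrocyte markers in L5PT summed to 178 to 192 CPM in NR GR-Con and 133 to 157 CPM in NR GR-KO.

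The same comparison in DR called 2 of 82 pairs (of 90), against 0.513% of all pairs, both of them Grm4 and both higher in GR-KO. In L2/3 neurons, Grm4 was at 7.96 and 6.36 CPM in DR GR-Con and at 13.98 and 10.8 CPM in DR GR-KO (log2 fold change 0.85, SE 0.23, edgeR adjusted p = 0.0359). In L4 neurons it was at 26.7 and 28.5 CPM against 37.7 and 39.9 CPM (log2 fold change 0.52, SE 0.14, edgeR adjusted p = 0.0218). Median UMIs per L2/3 nucleus were 20839 and 22846 in DR GR-Con and 19750 and 18144 in DR GR-KO. For L4 they were 18819 and 20179 against 16454 and 15660, and the part of depth was not tested. The groups did not overlap in either type, but the share of all genes without overlap is not given, so this does not set Grm4 apart. DESeq2 called both and no other member pair, against 0.372% of all pairs. The quasi-likelihood test called neither and 0 member pairs in all, against 0.00431% of all pairs, with 17 member pairs at an unadjusted p under 0.05. Each call ended without the DR GR-KO male (0.67 in L2/3 and 0.59 in L4) or the DR GR-KO female (1.01 and 0.46). It also ended in L2/3 without the DR GR-Con female (0.68) and in L4 without the DR GR-Con male (0.50). Grm5, Grm7 and Grm8 were not called in astrocytes or oligodendrocytes in DR.

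The difference between the 2 genotype effects was tested as an interaction (the effect in NR minus the effect in DR), which uses all 8 libraries. It was called for 4 of 84 pairs (of 90), against 0.181% of all pairs, and these were Grm5 and Grm7 in astrocytes and oligodendrocytes. The quasi-likelihood test called 0, against 0.00276%, with 21 at an unadjusted p under 0.05, and DESeq2 called 5, against 0.130%. In astrocytes the interaction was 1.296 for Grm5 (SE 0.26, edgeR adjusted p = 6.80e-04) and 1.49 for Grm7 (SE 0.39, edgeR adjusted p = 0.0383), both on the log2 scale. In DR, astrocytic Grm5 was at 149 and 156 CPM in GR-Con and at 132 and 117 CPM in GR-KO. Astrocytic Grm7 was at 93.1 and 180 CPM in DR GR-Con and at 104 and 96.1 CPM in DR GR-KO, so that the DR GR-Con female alone was high. Neuronal markers in astrocytes summed to 1068 to 1497 CPM in DR GR-Con and 1131 to 1199 CPM in DR GR-KO. The Grm5 call ended without the NR GR-Con female (1.23) or either DR GR-KO library (1.36 and 1.24), and the Grm7 call without the NR GR-Con female (1.31), either NR GR-KO library (1.58 and 1.40) or either DR GR-KO library (1.52 and 1.47).

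**Figure D2:**
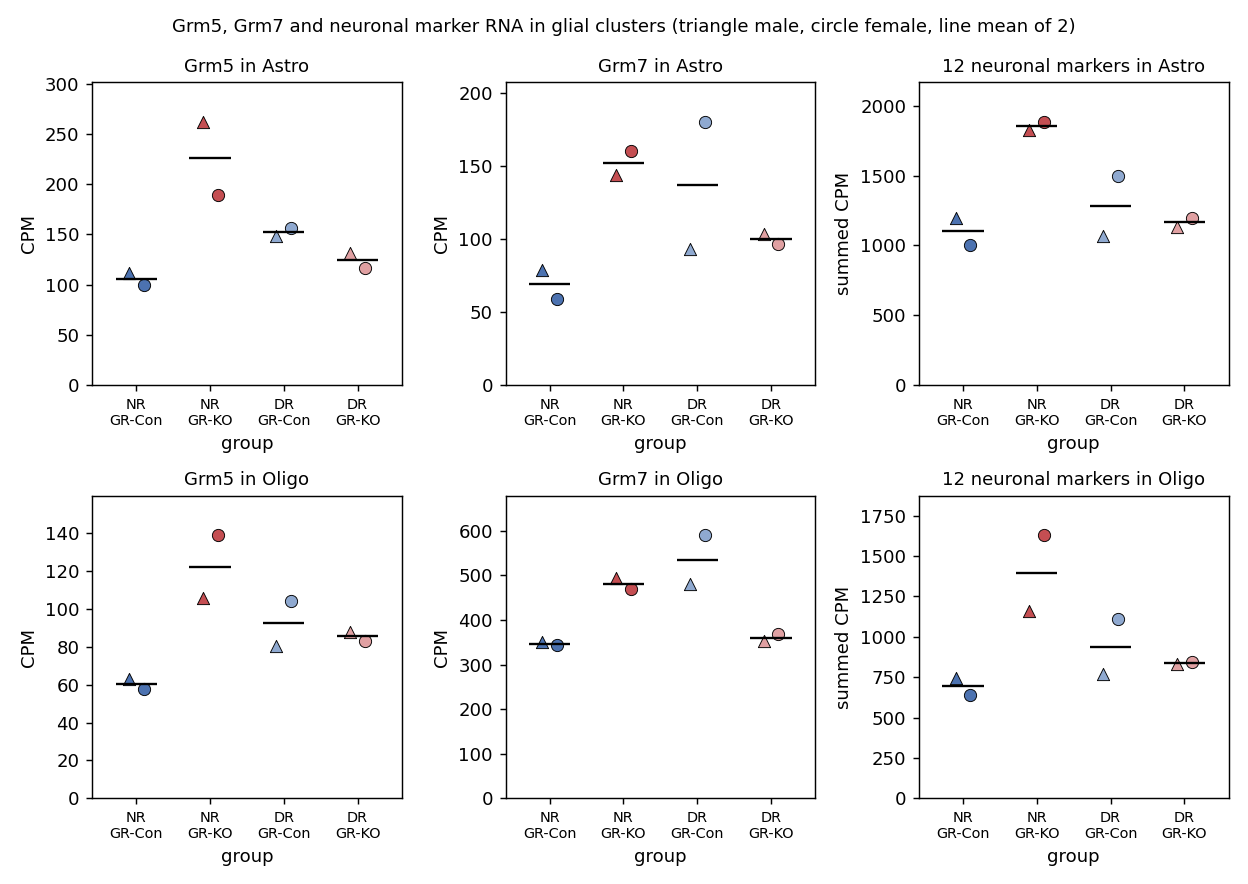
Levels of Grm5 and Grm7 (CPM) and the summed level of 12 excitatory and pan-neuronal markers (summed CPM) in astrocytes (upper row) and oligodendrocytes (lower row), by group. Triangles are male libraries, circles female libraries and lines the mean of 2. In astrocytes of NR GR-KO, Grm5 (189 and 262 CPM) and the marker sum (1827 and 1886 CPM) are both the highest of the 4 groups.

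Over both rearings, with rearing as a term, GR-KO against GR-Con called 0 of 84 member pairs, against 0.400% of all pairs. The quasi-likelihood test also called 0, against 0.196%, with 7 pairs at an unadjusted p under 0.05 in each edgeR test, and DESeq2 called 0 with 6, against 0.320%. Grm3 in astrocytes was at a log2 fold change of 0.23 (SE 0.17, edgeR adjusted p = 0.678).

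The comparison of DR with NR in GR-Con asks how rearing in darkness relates to the receptors where the astrocytes had ΔCre. Of 83 pairs (of 90), 6 were called, 3 higher and 3 lower in DR, against 2.25% of all pairs. The quasi-likelihood test called 0, against 0.495%, with 19 at an unadjusted p under 0.05, while DESeq2 called 7, against 1.51%. Grm8 accounted for 4 of the 6 calls. In OPC it was at 163 and 152 CPM in NR GR-Con and at 52.1 and 78.7 CPM in DR GR-Con, which fell by 1.24 on the log2 scale (SE 0.20, edgeR adjusted p = 1.99e-06).

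In parvalbumin interneurons, Grm8 was at 57.7 and 40.3 CPM in NR GR-Con and at 27.9 and 29.9 CPM in DR GR-Con, which fell by 0.77 on the log2 scale (SE 0.18, edgeR adjusted p = 0.00276). The call ended without the NR GR-Con male (-0.49). Grm8 went the other way in L4 and L5IT, and was called in no other excitatory type. In L4 it rose from 28.6 and 37.3 CPM to 50.6 and 61.0 CPM (log2 fold change 0.77, SE 0.19, edgeR adjusted p = 0.00469). In L5IT it rose from 514 and 553 CPM to 1026 and 702 CPM (log2 fold change 0.70, SE 0.22, edgeR adjusted p = 0.0260). Removing the NR GR-Con male ended both calls, with 0.58 in L4 and 0.64 in L5IT on the log2 scale. The L5IT call also ended without the NR GR-Con female (0.76) or the DR GR-Con male (0.36). Grm3 was lower in L5IT and higher in L5PT in DR, at log2 fold changes of -0.45 and 0.58. The Grm3 call in L5IT ended without any 1 of the 4 libraries (-0.53 to -0.38), and that in L5PT without either NR GR-Con library (0.64 and 0.52) or the DR GR-Con male (0.39). The summed level of 6 astrocyte markers was 693 to 712 CPM in NR GR-Con and 519 to 541 CPM in DR GR-Con in L5IT, and 178 to 192 CPM against 132 to 146 CPM in L5PT. What part astrocyte RNA had in these Grm3 differences was not tested.

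In GR-KO, DR against NR called 11 of 95 pairs (of 108), 3 higher and 8 lower, against 3.66% of all pairs. The quasi-likelihood test called 5, against 0.857%, and DESeq2 called 7, against 2.53%. Grm4 gave the 3 higher calls. In L2/3 it was at 6.46 and 4.48 CPM in NR GR-KO and at 13.98 and 10.8 CPM in DR GR-KO (log2 fold change 1.23, SE 0.25, edgeR adjusted p = 8.83e-05). In L4 it was at 26.4 and 25.3 CPM against 37.7 and 39.9 CPM (log2 fold change 0.65, SE 0.15, edgeR adjusted p = 6.36e-04), and in Sst interneurons at 29.4 and 27.96 CPM against 44.6 and 40.4 CPM (log2 fold change 0.58, SE 0.16, edgeR adjusted p = 0.0480). Over the 15 cell types tested in GR-KO the log2 fold changes of Grm4 ran from 0.28 to 1.23, but 12 of these were not called. In GR-Con they ran from -0.42 to 0.64 over 14 types, with 0 called. Median UMIs per L2/3 nucleus were 27166 and 37731 in NR GR-KO and 19750 and 18144 in DR GR-KO. For L4 they were 23905 and 32205 against 16454 and 15660, and for Sst 21161 and 28411 against 14489 and 15002. What part depth had in the Grm4 differences was not tested. The L2/3 call ended without the DR GR-KO male (1.06), and the L4 and Sst calls ended without the DR GR-KO male (0.72 and 0.52) or the DR GR-KO female (0.58 and 0.64). The Sst call was lost in 8 of 11 alternatives, among them the quasi-likelihood test, DESeq2, no filter on low counts, all 4 groups in 1 fit and leaving out the NR GR-KO male (0.58). The quasi-likelihood test did not make the L2/3 call.

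The lower calls of GR-KO were in glia, vascular cells and interneurons. In parvalbumin interneurons, Grm8 was at 31.4 and 42.8 CPM in NR GR-KO and at 11.8 and 20.9 CPM in DR GR-KO, which fell by 1.14 on the log2 scale (SE 0.25, edgeR adjusted p = 0.00153), a call that ended without the DR GR-KO male (-0.78) and that neither the quasi-likelihood test nor DESeq2 made. Grm3 in Lamp5 interneurons was at 46.03 and 86.6 CPM against 23.1 and 27.2 CPM, which fell by 1.34 on the log2 scale (SE 0.30, edgeR adjusted p = 0.00164), and without the NR GR-KO female the fall was 0.81 and not called. The quasi-likelihood test did not call it either. Astrocyte markers in Lamp5 neurons summed to 335 to 338 CPM in NR GR-KO and 275 to 368 CPM in DR GR-KO. In oligodendrocytes Grm3 and Grm8 fell by 0.50 and 0.69 on the log2 scale, and neither was called by DESeq2, the quasi-likelihood test or the fit of all 4 groups. Grm3 was lost in 7 of 11 alternatives and Grm8 in 5. Both calls ended without the DR GR-KO male (-0.42 and -0.54) or the DR GR-KO female (-0.58 and -0.85), and that of Grm3 without the NR GR-KO female (-0.35). In oligodendrocytes the neuronal markers summed to 1158 to 1629 CPM in NR GR-KO and 829 to 845 CPM in DR GR-KO, and the astrocyte markers to 207 to 217 CPM against 155 to 185 CPM. Median UMIs per oligodendrocyte were 11134 and 15571 against 7040 and 7308. Their part was not tested.

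In astrocytes of GR-KO, Grm5 and Grm7 were lower in DR, with log2 fold changes of -0.78 (SE 0.16) and -0.53 (SE 0.13), and edgeR adjusted p-values of 2.62e-04 and 0.00418. The neuronal marker sum moved with them, from 1827 to 1886 CPM in NR GR-KO to 1131 to 1199 CPM in DR GR-KO, as did median UMIs per astrocyte, from 8662 and 12124 to 4889 and 5227. The part of either was not tested. The Grm5 call ended without the DR GR-KO female (-0.72), and the Grm7 call without the DR GR-KO male (-0.56) or female (-0.50). In VLMC (20 to 65 nuclei a library), Grm5 and Grm7 fell by 2.81 and 2.99 on the log2 scale. Grm5 was at 1353 and 1062 CPM in NR GR-KO and at 176 and 227 CPM in DR GR-KO. In VLMC the neuronal markers summed to 11122 to 15105 CPM in NR GR-KO and 1759 to 2393 CPM in DR GR-KO, with 1 of 12 markers at 0 in 1 DR library. Median UMIs per VLMC nucleus were 11021 and 7925 in NR GR-KO and 3656 and 3907 in DR GR-KO. The part of either was not tested. The share of all genes called in VLMC in this comparison is given below with Shank2.

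**Figure D3:**
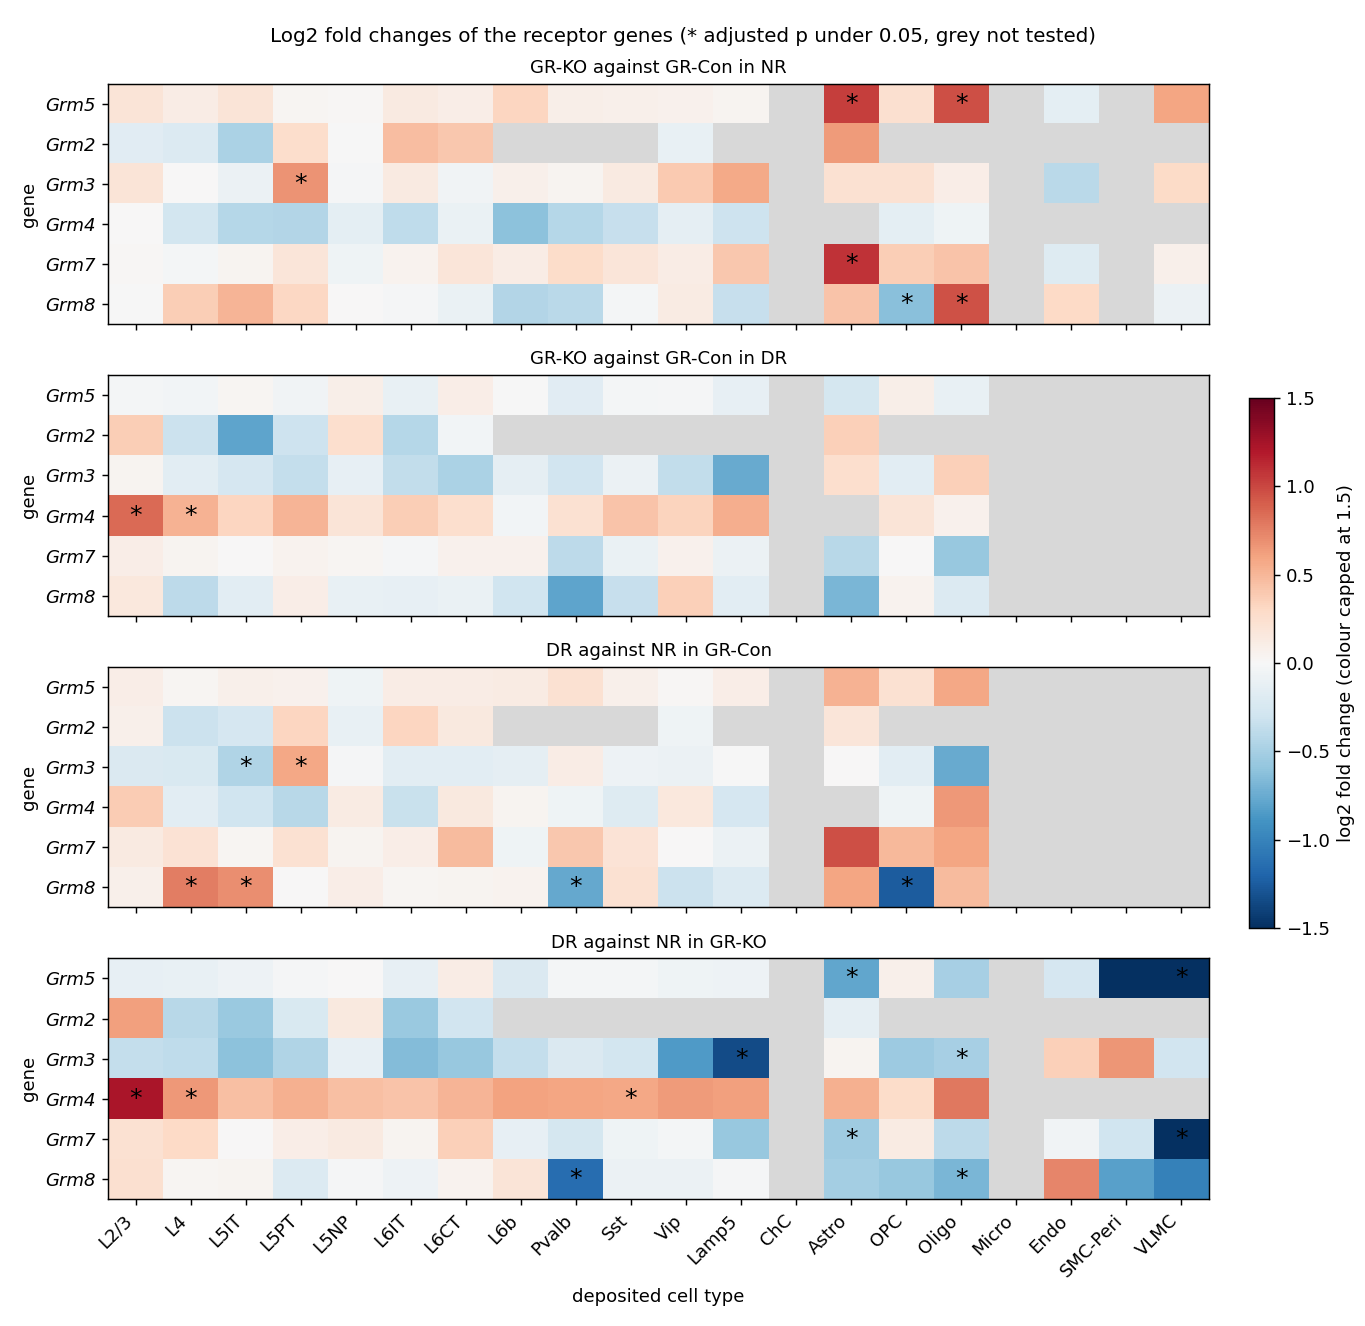
Log2 fold change of each receptor gene (rows) in each deposited cell type (columns) for the 4 comparisons of 2 groups; an asterisk marks an adjusted p under 0.05 by the edgeR likelihood ratio test, and grey marks pairs not tested. Colour is capped at 1.5, so the VLMC values of Grm5 and Grm7 (-2.81 and -2.99) lie beyond it. Grm4 is at positive values in each tested cell type in DR against NR in GR-KO.

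Rearing over both genotypes, with genotype as a term, used 4 DR and 4 NR libraries. It called 3 of 84 pairs (of 90), against 5.24% of all pairs, and the quasi-likelihood test called 3, against 3.30%, while DESeq2 called 9, against 5.03%. The share of member pairs called was 3.57% by both edgeR tests, below the share of all pairs by the first and close to it by the second, and 10.7% by DESeq2, above it. The 3 were Grm4 in L2/3, Grm8 in OPC and Grm8 in parvalbumin interneurons, and they were called in all 14 alternatives run.

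Grm4 in L2/3 rose in DR by 0.81 on the log2 scale (SE 0.22, edgeR adjusted p = 0.00386), with a mean of 5.39 ± 0.959 CPM in NR and 9.78 ± 3.36 CPM in DR (SD, n = 4 each). The ranges overlapped, since the DR GR-Con female was at 6.36 CPM and the NR GR-KO male at 6.46 CPM. The summed level of 4 inhibitory markers in L2/3 was 4.98 to 9.01 CPM in NR and 3.71 to 8.28 CPM in DR. In GR-Con alone, DR against NR called Grm4 in 0 of 14 cell types, while in GR-KO the L2/3 rise of 1.23 was called. The interaction for Grm4 in L2/3 was -0.84 (SE 0.34, edgeR adjusted p = 0.480). Over the 14 types tested it ran from -0.95 to -0.14, with 0 called. A difference between genotypes in this response was thus not shown, and neither was a rise in GR-Con alone.

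Grm8 in OPC fell in DR by 0.91 on the log2 scale (SE 0.17, edgeR adjusted p = 6.30e-05), from 131 ± 32.1 CPM in NR to 66.8 ± 16.9 CPM in DR, with no overlap between the 4 and 4 libraries. In GR-Con alone this fall was called (log2 fold change -1.24), while in GR-KO alone it was not. The interaction was called for Grm8 in 0 of 15 cell types. A difference between genotypes in this response was thus not shown, and neither was a fall in GR-KO alone. Neuronal markers in OPC summed to 1898 to 2706 CPM in NR and 1866 to 2326 CPM in DR. In parvalbumin interneurons Grm8 fell by 0.94 on the log2 scale (SE 0.18, edgeR adjusted p = 7.67e-05), from 43.1 ± 10.9 CPM to 22.6 ± 8.17 CPM, also without overlap. The share of all genes without overlap is not given, so this does not set Grm8 apart in either type. Neuronal markers in these cells summed to 9836 to 11212 CPM in NR and 9826 to 9880 CPM in DR. That list holds pan-neuronal genes, which these neurons can express themselves, so its sum does not measure RNA from other cells here. Grm8 was not called by rearing in the types where it is most abundant, L5NP, L6CT and L5PT.

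**Figure D4:**
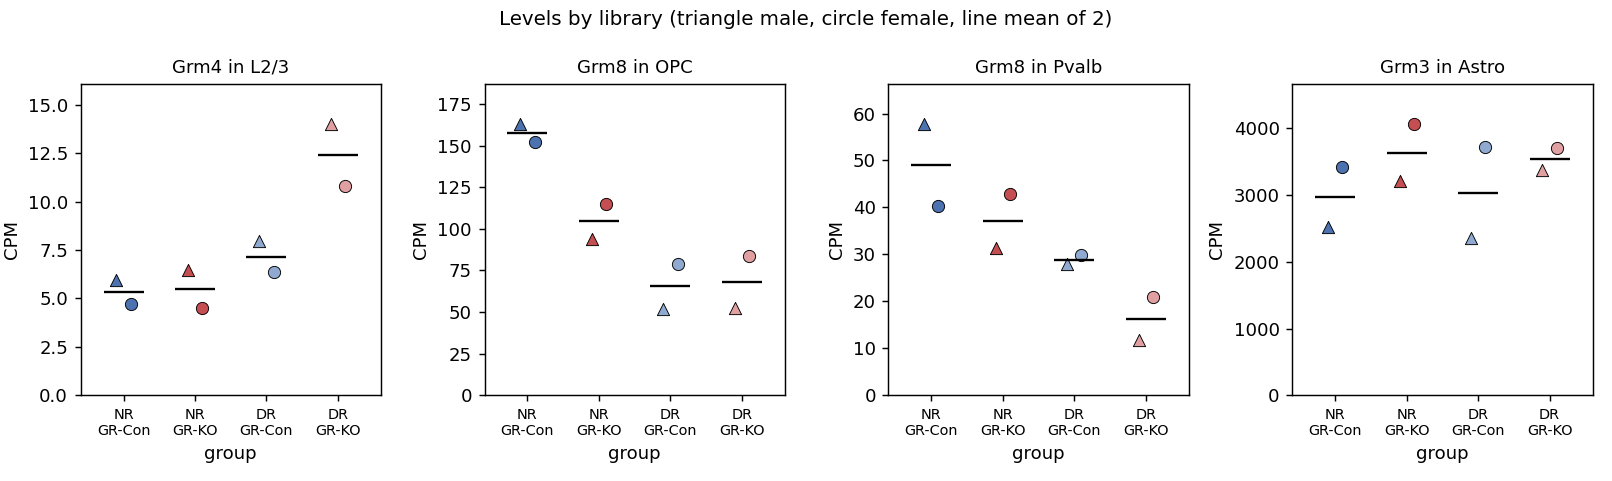
Levels in CPM of Grm4 in L2/3 neurons, Grm8 in OPC, Grm8 in parvalbumin interneurons and Grm3 in astrocytes, by group; triangles are male libraries, circles female libraries and lines the mean of 2. Grm8 in OPC lies at 94.0 to 163 CPM in the NR libraries and 52.1 to 84.0 CPM in the DR libraries, while Grm3 in astrocytes overlaps between all groups.

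Other genes of the pathway were taken from a list of 52, which included 15 scaffolds and synaptic partners, 14 effectors of group I, 12 effectors of groups II and III and 9 regulators. Of the 52 genes, 51 were tested. In NR, GR-KO against GR-Con called 18 of 825 pairs (2.18%, against 0.804% of all pairs), 15 higher and 3 lower, and the quasi-likelihood test called 7. Trpc5, a cation channel opened downstream of Gq, was higher in 5 cell types at log2 fold changes of 0.84 to 2.10, in astrocytes from a mean of 1.99 CPM. The highest, in Endo, was lost in 5 of 10 alternatives, and neuronal markers there summed to 7671 to 10575 CPM in NR GR-Con and 11821 to 12222 CPM in NR GR-KO, their part not tested. In astrocytes, Adcy8 and Adcy2, which make cyclic AMP, rose by 1.72 and 0.68, and the potassium channel genes Kcnj6 and Kcnj3 rose by 1.07 and 0.76. Itpr2, the main inositol trisphosphate receptor of astrocytes, fell by 0.46 on the log2 scale (SE 0.15, edgeR adjusted p = 0.0320), from a mean of 417 CPM. That call ended without any 1 of the 4 libraries (-0.48 to -0.44). Shank2 and Shank1 also rose in astrocytes, at 1.02 and 0.60, and the neuronal marker values given above for NR apply to each of these genes. Of the 16 calls of genes that the naming rule took in NR, 12 were lost under at least 1 alternative, and Adcy8, Kcnj3, Shank2 and Trpc5 in astrocytes were kept under all of those run.

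In DR, the genotype comparison called 8 of 744 pathway pairs (1.08%, against 0.513% of all pairs), all higher. DESeq2 called 10, against 0.372% of all pairs, and the quasi-likelihood test called 0, against 0.00431%, with 115 at an unadjusted p under 0.05. Homer1, which links Grm5 to its scaffold, was called in 4 cell types (L4, L6CT, L6b and Sst) at 0.68 to 1.02 on the log2 scale. Dagla, which makes the endocannabinoid 2-AG, rose in L4 (0.64) and L6CT (0.64), Mgll, which breaks it down, in L2/3 (0.61), and Adcy8 in astrocytes (1.09). All 8 calls ended without the DR GR-KO female, with values of 0.49 to 0.76 for Homer1, 0.68 and 0.66 for Dagla, 0.69 for Mgll and 1.07 for Adcy8. Those of Dagla, Mgll and Adcy8 also ended without the DR GR-KO male (0.52 to 1.12), and that of Mgll without the DR GR-Con female (0.51). Over both rearings, 7 of 747 pairs were called (0.937%, against 0.400% of all pairs), while the quasi-likelihood test called 4, against 0.196%. Of the 7, 6 were in astrocytes: Adcy8 (1.39), Shank2 (0.76), Adcy2 (0.68) and Grip1 (0.45) rose, while Arrb1 (-0.38) and Itpr1 (-0.36) were lower. The Itpr1 call was lost in 11 of 14 alternatives, DESeq2 and 6 left-out libraries among them (-0.40 to -0.32), the Arrb1 call in 9 (-0.41 to -0.31 without 1 of 6 libraries) and the Grip1 call in 5 (0.37 to 0.47 without 1 library). Itpr2 was lower in L5PT, at -1.502, which the quasi-likelihood test did not call. The interaction called 2 of 747 pairs (0.268%, against 0.181% of all pairs), both of them Trpc5, at 1.99 in astrocytes and 2.29 in oligodendrocytes. Of these the quasi-likelihood test called 0, against 0.00276% of all pairs, with 82 pairs of the list at an unadjusted p under 0.05. With DESeq2, 1 pair was called, against 0.130%. The astrocyte call ended without any 1 of 6 libraries (1.84 to 2.19), the exceptions being both DR GR-Con libraries. The oligodendrocyte call ended without any 1 of 5 (1.91 to 2.52), the exceptions being the NR GR-Con female, the NR GR-KO female and the DR GR-Con male.

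More pathway pairs were called by rearing. In GR-Con, DR against NR called 36 of 743 pairs (4.85%, against 2.25% of all pairs), 28 higher and 8 lower, and the quasi-likelihood test called 10. Grk3, a receptor kinase, rose in 4 excitatory types at 0.48 to 0.85. Elfn2, a postsynaptic protein that binds group III receptors, rose in 3 types at 0.65 to 0.78. Kcnj3, a channel subunit opened by Gi/o signalling, was lower in 4 types at -1.06 to -0.55. Of the 15 calls of genes that the naming rule took here, 13 were lost under at least 1 alternative, among them Elfn2 in L6IT in 9 of 11 and Kcnj3 in L4 in 7 of 11, while Grk3 in L5IT was kept in all 11.

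In GR-KO, DR against NR called 70 of 844 pathway pairs (8.29%, against 3.66% of all pairs), 39 higher and 31 lower, and the quasi-likelihood test called 20. Rgs4, which speeds the inactivation of Gq and Gi/o, was lower in 7 types at -1.45 to -0.63, among them astrocytes (-0.63) and oligodendrocytes (-0.89), where the neuronal marker sums and UMIs per nucleus given above fell too. Shank2 rose in 5 types and was lower in VLMC, where its log2 fold change was -3.67. In VLMC 19.9% of all genes tested were called, and the fall of the neuronal marker sum given above stands beside this value too, its part not tested. Elfn2 and Lrrc4b each rose in 5 types. Of these 23 calls, 22 were lost under at least 1 alternative, Rgs4 in astrocytes in 8 of 11, and Shank2 in VLMC was the exception. Over both genotypes, 78 of 747 pairs were called (10.4%, against 5.24% of all pairs), 57 higher and 21 lower, and the quasi-likelihood test called 50. Rgs4 was lower in 9 types at -1.12 to -0.61, Kcnj3 was lower in 8 at -1.10 to -0.30, Shank2 rose in 9 at 0.32 to 0.69 and Elfn2 rose in 7 at 0.34 to 0.86. Of these 33 calls, 17 were lost under at least 1 alternative, among them Elfn2 in Pvalb in 11 of 14 and Rgs4 in Sst, Shank2 in L5PT and Shank2 in Lamp5 in 10 of 14 each. The median log2 fold change over the list was 0.08, that of the members was 0.02, and that of all genes was between -0.01 and 0.00 in each cell type. Whether the list differs from other genes was not tested.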

How the data were processed

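The authors deposited UMI counts per gene and nucleus with a table of libraries, sexes and cell types. They aligned reads with Cell Ranger 8.0.1 to mm10 with an annotation that held the viral sequence, and used Seurat 5.3.0, removal of predicted doublets and clustering, and their cell type names were kept. Matrix column sums equalled the deposited UMI totals for 102330 nuclei. Library names show group and sex but no replicate number. Counts were summed per library and cell type, and types with at least 10 nuclei in each library of a fit were tested with edgeR 4.0.16 in R 4.3.3 (filterByExpr, TMM, likelihood ratio test, two-sided, adjusted within the cell type). The quasi-likelihood test, DESeq2 1.42.0, a sex term, other scaling and filters, and leaving out libraries were alternatives; the quasi-likelihood test with a sex term was added after seeing the data. SE was derived from the fold change and its likelihood ratio statistic. Levels are CPM, with the SD taken between libraries. Gene positions come from GENCODE vM21. The tests were tried on simulated counts. All members are reported. From the pathway list, up to 4 genes per comparison called in most cell types are named, with every pathway gene called in astrocytes in a genotype comparison; 1 gene that this rule names is not reported here. The members and lists were chosen with earlier results of these data known. Where labels do not say otherwise, p-values set a difference against the spread between these libraries, which is estimated partly across genes. The libraries of a group differ in sex, so without a sex term that spread mixes sex with other variation.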

Additional observations from a re-analysis of the deposited data

Results flagged for a closer look

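The genotype difference of 4 receptor and cell type pairs was not the same in NR as in DR by the likelihood ratio test of the interaction in edgeR. The differences, as the NR effect minus the DR effect on the log2 scale, were 1.296 for Grm5 in astrocytes, 1.07 for Grm5 in oligodendrocytes, 1.49 for Grm7 in astrocytes and 0.99 for Grm7 in oligodendrocytes. In oligodendrocytes Grm7 was at 351 and 343 CPM in NR GR-Con, at 494 and 469 CPM in NR GR-KO, at 480 and 590 CPM in DR GR-Con and at 353 and 368 CPM in DR GR-KO. None of the 4 was called by the quasi-likelihood test. Over the alternatives, the adjusted p of edgeR or DESeq2 ran from 1.91e-05 to 0.209 for Grm5 in astrocytes, 2.29e-04 to 0.258 for Grm5 in oligodendrocytes, 8.17e-13 to 0.589 for Grm7 in astrocytes and 1.18e-04 to 0.267 for Grm7 in oligodendrocytes. In oligodendrocytes the Grm5 call ended without any 1 library other than the NR GR-KO male and the DR GR-Con male (0.87 to 1.11), and the Grm7 call without any 1 other than those and the NR GR-KO female (0.86 to 1.03). The neuronal marker sum in oligodendrocytes was 641 to 744 CPM in NR GR-Con, 1158 to 1629 CPM in NR GR-KO, 769 to 1110 CPM in DR GR-Con and 829 to 845 CPM in DR GR-KO, and its part in the interaction was not tested.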

How the results depend on the processing

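No paired analysis was possible by the numbers of the labels, because the library names of the deposited table carry no replicate numbers. The numbers of the labels could thus not serve as a block. Each group held 1 male and 1 female library, and a fit with sex as a term, which sets like sexes side by side, gave 9, 4, 7, 18, 8, 0 and 8 calls for genotype in NR, genotype in DR, rearing in GR-Con, rearing in GR-KO, the interaction, genotype over both rearings and rearing over both genotypes, where 1.84%, 1.16%, 2.997%, 6.18%, 0.590%, 0.504% and 6.47% of all pairs were called. Of 32 called member results, 8 kept their call under every alternative run and 24 lost it under at least 1, and 0 of 371 alternative values changed direction. The 8 are Grm5 and Grm7 in astrocytes and Grm5 in oligodendrocytes (genotype, NR), Grm5 and Grm7 in VLMC (rearing, GR-KO) and Grm4 in L2/3, Grm8 in OPC and Grm8 in Pvalb (rearing over both genotypes). No alternative tested the part of neuronal RNA in these calls. The quasi-likelihood test moved the number of calls to 0 (genotype in DR), 0 (rearing in GR-Con), 5 (rearing in GR-KO) and 0 (interaction). DESeq2 gave 7 (rearing in GR-KO) and 9 (rearing over both genotypes). With sex and the quasi-likelihood test together the counts were 2 (rearing in GR-Con) and 0 (interaction). With 4 groups in 1 fit they were 0 (genotype in DR), 2 (rearing in GR-Con) and 6 (rearing in GR-KO). The share of all pairs was not set beside the counts with 4 groups in 1 fit or with sex and the quasi-likelihood test together. Those counts do not set the receptors apart from other genes, and the cause of the moves was not tested.

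Leaving out 1 library at a time gave 4 to 9 calls for genotype in NR, 0 to 7 for genotype in DR, 1 to 10 for rearing in GR-Con, 5 to 21 for rearing in GR-KO, 1 to 8 for the interaction, 0 to 2 for genotype over both rearings and 3 to 7 for rearing over both genotypes. Genotype in DR gave 0 without the DR GR-KO male, 1 without the DR GR-KO female, 5 without the DR GR-Con female and 7 without the DR GR-Con male. Rearing in GR-Con gave 1 without the NR GR-Con male, 3 without the NR GR-Con female and 10 without the DR GR-Con male. Rearing in GR-KO gave 5 without the DR GR-KO male and 21 without the NR GR-KO male. The interaction gave 8 without the DR GR-Con male, 2 without the NR GR-Con male or the NR GR-KO female, and 1 without the NR GR-Con female or either DR GR-KO library. Genotype over both rearings gave 2 without the NR GR-KO female and 1 without the NR GR-Con or DR GR-Con female. Rearing over both genotypes gave 7 without the NR GR-KO male and 5 without either DR GR-Con library. The share of all pairs called in each of these fits is not given, so these counts do not set the receptors apart from other genes. Leaving a group with 1 library assumes that it varies like the other groups. The highest level of each of the 6 genes was recomputed (mean over nuclei, TMM-scaled totals, 1 library left out) and stayed within 1 SD of the reported mean. Without 1 library, Grm3 in astrocytes was at 3185 to 3429 CPM, Grm2 in L4 at 11.5 to 12.4, Grm7 in L4 at 4983 to 5160, and Grm4, Grm5 and Grm8 in L5NP at 55.5 to 60.3, 3339 to 3396 and 1602 to 1641. Depth limits the rare genes: Grm2 did not pass the filter on low counts in OPC in any comparison, nor did Grm4 in astrocytes except in rearing in GR-KO. Other levels moved more with the mean over nuclei: in Endo, Grm7 was at 900.2 CPM against 1694 CPM and Grm5 at 394 CPM against 795 CPM. In VLMC, Grm7 was at 625 CPM against 1253 CPM and Grm5 at 337 CPM against 681 CPM. Grm5 in SMC-Peri was at 420 CPM against 738 CPM.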
